A study of Mus musculus with 6 samples.

Results

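Chemokines are small secreted proteins that guide the movement of leukocytes, and they are sorted by the spacing of the first cysteines of the mature protein into the CC, CXC and CX3C classes. Most act on G protein-coupled receptors of the target cell, while atypical receptors such as ACKR3 bind a chemokine and remove it without the usual G protein signal. In the brain some chemokines are made at rest, such as CXCL12, CXCL14 and CX3CL1, and others appear in glia and vessels under inflammatory signals, such as CCL2, CCL5, CXCL9 and CXCL10. The data described here are 9 genes of this system in ribosome-bound mRNA of hippocampal astrocytes: the 2 CC ligands Ccl5 and Ccl2, the 5 CXC ligands Cxcl9, Cxcl10, Cxcl12, Cxcl14 and Cxcl16, the CX3C ligand Cx3cl1, and the scavenger receptor Ackr3. They were 9 of the 22086 genes with a count, and each was represented by its Ensembl transcript with the highest total over the 6 libraries. The genes were chosen by these same counts, and Ccl5 and Cxcl10 had also been singled out by the study from these samples, so the genotype values below are descriptions of the 9 genes and not independent evidence of a direction.

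The study asked how loss of connexin 43 (Cx43, gene Gja1), a gap junction protein of astrocytes, alters the mRNAs that astrocytes translate. Polysomes were immunoprecipitated from whole hippocampi of 6-week-old mice that carry a GFP-tagged ribosomal protein under the Aldh1l1 promoter (translating ribosome affinity purification, TRAP; strain tg:Aldh1L1-RPL10aGFP), with 3 libraries in each of 2 genotypes. All 6 libraries carried the tagged ribosome and the floxed allele Cx43 fl/fl; the 3 Cx43FL libraries came from littermates without Cre, and the 3 Cx43KO libraries from mice that also carried Gfap Cre, a recombinase driven by a human GFAP promoter. The labels do not tie a library to 1 animal or 1 litter, so the p-values given here measure the spread between libraries.

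The counts summed over genes were 14787303 to 15391214 in Cx43FL and 16056347, 23965596 and 34733473 in Cx43KO replicates 1, 2 and 3. Gja1 had 91.9, 91.7 and 82.3 counts per 1000000 (CPM) in Cx43FL and 87.2, 98.4 and 95.1 CPM in Cx43KO, so that the deletion was not visible in these counts and Cx43KO is used below only as the label of the libraries. Astrocyte markers (10 genes) summed to 28350 to 31590 CPM in Cx43FL and to 14250, 27460 and 39980 CPM in Cx43KO replicates 1 to 3. Cx43KO replicate 1 stood apart, with the lowest astrocyte sum and the highest neuron marker sum (7804 CPM, against 3070 and 4492 CPM in the other Cx43KO libraries and 2152 to 2902 CPM in Cx43FL). Values without this library are therefore given beside those of the members and lists that it moved. In bulk samples of this kind, fewer cells of a type and less RNA per cell cannot be told apart.

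The coding sequences show the feature that defines the 3 ligand classes, and they are printed here so that the class of each member can be read directly. Each stretch holds 12 bases on either side of the first pair of cysteine codons, 5′ to 3′ on the coding strand, read from the GENCODE vM21 transcripts of GRCm38, with the 2 cysteine codons in capitals.

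Ccl5: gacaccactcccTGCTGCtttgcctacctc

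Ccl2: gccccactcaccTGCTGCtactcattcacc

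Cxcl9: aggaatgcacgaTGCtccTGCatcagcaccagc

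Cxcl10: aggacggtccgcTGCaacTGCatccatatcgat

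Cxcl12: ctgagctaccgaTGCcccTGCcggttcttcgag

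Cxcl14: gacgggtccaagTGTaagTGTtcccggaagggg

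Cxcl16: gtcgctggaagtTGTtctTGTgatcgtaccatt

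Cx3cl1: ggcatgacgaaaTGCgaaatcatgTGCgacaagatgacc

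The codons were adjacent in Ccl5 (chr11:83529230-83529259, minus strand) and Ccl2 (chr11:82036494-82036523, plus strand). They were separated by 1 codon in Cxcl9 (chr5:92326830-92326862, minus), Cxcl10 (chr5:92348169-92348201, minus), Cxcl12 (chr6:117171496-117171528, plus), Cxcl14 (chr13:56295903-56296113, minus) and Cxcl16 (chr11:70459115-70459147, minus), and by 3 codons in Cx3cl1 (chr8:94778039-94778077, plus). The stretch lay within exon 2 in 7 of the 8 ligands, while that of Cxcl14 crossed from exon 1 to exon 2, and its interval includes the intron. The coding sequences gave proteins of 89 (Cxcl12) to 148 residues (Ccl2) for the 6 ligands released as small proteins, and of 246 and 395 residues for Cxcl16 and Cx3cl1, which are made as membrane-anchored forms with a chemokine domain on a stalk.

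None of the 9 genes passed the genotype test. This test was edgeR's quasi-likelihood test over all genes, with a call defined as a Benjamini-Hochberg adjusted p below 0.05 where the higher group also averaged over 50 normalized counts. Among the 13545 genes tested, 0.00738% were called higher in Cx43KO and 0% lower. A low-count filter removed Cxcl9, so 8 members were tested; Ccl5 and Ccl2 passed the filter through their Cx43KO counts alone, so that a difference was built into their passing. At an unadjusted p below 0.05, 3 of the 8 (Ccl5, Ccl2 and Cxcl10) were higher and 0 lower, against 5.66% of all tested genes higher and 2.67% lower. The 3 Cx43KO values all exceeded the 3 Cx43FL values for 2 of the 8, Ccl5 and Ccl2, against 8.08% of all tested genes, and all were smaller for 0 of the 8, against 7.45%. With DESeq2 and its prior, 2 of the 9, Ccl5 and Cxcl10, passed the same limits on the higher side and 0 on the lower side, against 0.827% and 0.124% of all genes with an adjusted p. The 9 genes fell into different patterns over the 3 Cx43KO libraries, and they are described below in that order.

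**Figure D1:**
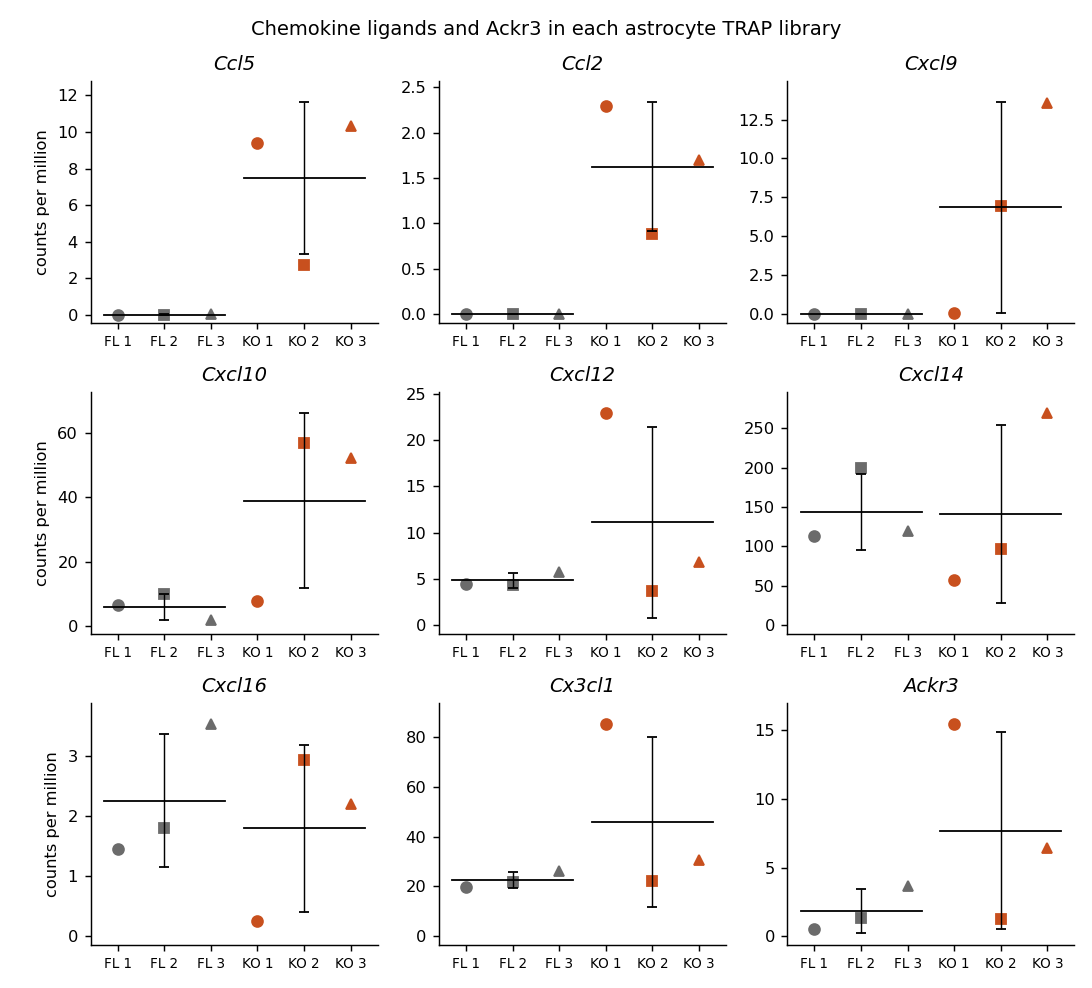
Counts per 1000000 (CPM, vertical axis, linear and from 0) of the 9 genes in each library (horizontal axis; FL 1 to 3 are Cx43FL replicates in grey, KO 1 to 3 are Cx43KO replicates in orange; circle, square and triangle are replicates 1, 2 and 3). Horizontal lines are group means and bars are SD (n = 3). Ccl5 and Ccl2 sit above 0 in all 3 Cx43KO libraries, Cxcl9 and Cxcl10 are high in replicates 2 and 3 only, and Cxcl12, Cx3cl1 and Ackr3 are highest in replicate 1.

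Ccl5, a CC ligand that draws T cells and monocytes, was nearly absent from Cx43FL. Cx43FL replicates 1 to 3 gave 0, 0 and 1 reads, and Cx43KO replicates 1 to 3 gave 151, 68 and 335 reads, or 9.37, 2.73 and 10.3 CPM. All 3 Cx43KO libraries were thus above all 3 Cx43FL libraries, and the Cx43KO libraries themselves differed by more CPM than the gap between the genotypes. The ratio of the group totals, scaled to library size, was 344, with an exact 95% interval of 61.6 to 13630 that covers counting error only and rests on a single Cx43FL read. The fitted log2 fold change was 8.05 (SE 1.53, edgeR adjusted p = 0.490), and it was 7.58 to 10.28 when single libraries were left out. A second transcript of the locus that keeps an intron, Ccl5-202, had no count in any Cx43FL library, while Cx43KO gave 121, 26 and 183, and it shares 35.9% of its bases with the chosen transcript Ccl5-201 (chr11:83525778-83530518, 3 exons).

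Ccl2, the CCR2 ligand that recruits monocytes, had the same pattern at a lower level. It had 0 counts in every Cx43FL library and 37, 22 and 55 counts in Cx43KO replicates 1 to 3, or 2.30, 0.884 and 1.70 CPM. With 3 counts over the Cx43FL group taken as the limit that 0 counts allow (0.0658 CPM), Ccl2 was at least 24.7-fold higher in Cx43KO as a group, and at least 34.9-, 13.4- and 25.8-fold higher in replicates 1, 2 and 3. Its mean normalized count of 32.3 ± 14.1 (SD, n = 3) in Cx43KO was under the minimum of 50 that a call required, so it could not have been called. Its edgeR adjusted p was 0.490. Ccl2 (chr11:82035571-82037453, plus strand, 3 exons) and Ccl5 lie 1488324 bases apart on chromosome 11, on opposite strands.

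Over the 6 libraries, the genes most like Ccl5 and Ccl2 were shared in part. Likeness was the Pearson correlation of log2(CPM + 0.5) among 13273 genes, given without a p because the libraries share genotype and depth. The predicted gene Gm11149 came first for both (r = 0.9946 for Ccl5 and 0.9944 for Ccl2). Laptm5, a lysosomal protein gene of blood-derived cells and microglia (r = 0.9943), and Pitrm1, a mitochondrial peptidase gene (r = 0.9928), followed for Ccl5. Ccl5 itself (r = 0.9928) and C3ar1, the receptor gene for complement C3a (r = 0.9927), followed for Ccl2. Laptm5 had 1.12, 1.06 and 0.977 CPM in Cx43FL and 7.51, 4.58 and 9.97 CPM in Cx43KO.

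Markers of microglia were measured in the same libraries. The 15 markers fixed for microglia summed to 53.7, 66.9 and 36.9 CPM in Cx43FL and to 165, 118 and 197 CPM in Cx43KO replicates 1 to 3, and 5 of the 13 tested markers were higher in all Cx43KO libraries than in any Cx43FL library, against 8.08% of all tested genes. The integrin gene Itgam was among these 5, with 9, 0 and 3 reads in Cx43FL and 610, 209 and 135 reads in Cx43KO, while the homeostatic markers P2ry12, Tmem119 and Cx3cr1 overlapped between genotypes. Itgam passed the filter through its Cx43KO counts alone. Markers of macrophages, monocytes and neutrophils (11 genes) summed to 2.54 to 7.05 CPM in Cx43FL and to 19.2, 46.3 and 96.8 CPM in Cx43KO, with Clec4d, S100a8 and Ly6g at 0 counts in all libraries. Lyz2, named here after its values were seen, was the largest part in each Cx43KO library, with 7.76, 31.4 and 84.4 CPM. It had 3.62, 1.19 and 1.63 CPM in Cx43FL. Only 2 of the 11 markers were tested, and Lyve1 had 0, 7 and 9 reads in Cx43FL and 0, 2 and 4 in Cx43KO. The sum therefore does not describe the class as a whole. Of the 15 T and NK cell markers, 11 were at 0 counts in all 6 libraries, Cd3d, Cd3e, Cd3g, Nkg7, Gzma and Gzmb among them. The others, named here after their values were seen, were Cd247, Cd4, Cd2 and Lck. Cd247 had 14.89, 14.99 and 5.80 CPM in Cx43FL and 24.8, 12.6 and 7.16 CPM in Cx43KO. Cd4 had 3, 1 and 16 reads in Cx43FL and 1, 66 and 34 in Cx43KO. Cd2 had 6, 0 and 0 reads in Cx43FL and 0, 44 and 1 in Cx43KO. Lck had 6, 7 and 16 reads in Cx43FL and 2, 8 and 0 in Cx43KO. The part of microglia or macrophage mRNA in the Ccl5 and Ccl2 values was not tested.

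Cxcl9 and Cxcl10 are neighbouring ligands of CXCR3, the receptor of activated T cells, and both are classical products of interferon-γ signalling. In these libraries they shared a pattern that differed from that of Ccl5 and Ccl2: both were high in Cx43KO replicates 2 and 3 and not in replicate 1. Cxcl9 (chr5:92321347-92328079, minus strand, 4 exons) had 0 counts in each Cx43FL library and 1, 172 and 440 counts in Cx43KO replicates 1 to 3. These corresponded to 0.0621, 6.91 and 13.6 CPM. Against the limit of 0.0658 CPM, Cxcl9 was at least 105-fold higher in replicate 2 and at least 206-fold higher in replicate 3, while replicate 1 was itself under that limit. The filter removed the gene because only 2 libraries exceeded the minimum, and without a filter its edgeR adjusted p was 0.299.

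Cxcl10 was already present in Cx43FL. It had 6.52, 9.95 and 1.89 CPM in Cx43FL and 7.82, 56.9 and 52.1 CPM in Cx43KO replicates 1 to 3, so replicate 1 lay within the Cx43FL range and the other Cx43KO libraries lay above it. The fitted log2 fold change was 2.67 (SE 0.80, edgeR adjusted p = 0.492), and 3.15 without Cx43KO replicate 1 (adjusted p = 0.139). Among all tested genes, 5.8% had replicates 2 and 3 above every Cx43FL library and replicate 1 not. A second transcript, Cxcl10-202, had at most 12 counts in Cx43FL against 3, 341 and 310 in Cx43KO, and followed the pattern of Cxcl10-201 (chr5:92346638-92348882, minus strand, 4 exons). The libraries carry no strand, and 133 bases of the last exon of Cxcl10 overlap a transcript of Art3 on the opposite strand. That transcript, Art3-214, had 17, 59 and 3 counts in Cx43FL and 10, 113 and 150 in Cx43KO, fewer than Cxcl10 in every library.

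The chosen transcripts of Cxcl9 and Cxcl10 are 18558 bases apart on the same strand. Per kb of transcript, Cxcl10 exceeded Cxcl9 by 21.7 times in Cx43KO replicate 2 and 10.1 times in replicate 3. Cxcl10 was thus the more abundant CXCR3 ligand in both libraries, and it was the only 1 of the pair with counts in Cx43FL. The other CXCR3 ligand, Cxcl11, had no row in the counts and was not analysed here.

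The upstream sequence is shown for this pair because the genes are neighbours with like patterns over the libraries. The 250 bases before the annotated start are given 5′ to 3′ on the gene's strand, from the RefSeq promoter table of GRCm38.p6, which matched 6 of the 9 members; capitals mark matches to an interferon-stimulated response element core (GAAA, any 2 bases, GAAA), to a gamma-activated site core (TTC, any 3 bases, GAA) or to the κB consensus, on either strand.

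Cxcl10: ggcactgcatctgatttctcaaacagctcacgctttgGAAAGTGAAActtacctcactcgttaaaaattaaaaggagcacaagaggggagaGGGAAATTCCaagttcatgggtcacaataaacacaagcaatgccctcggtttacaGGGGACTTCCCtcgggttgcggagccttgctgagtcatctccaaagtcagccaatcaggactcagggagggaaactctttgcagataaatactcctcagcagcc

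Cxcl9: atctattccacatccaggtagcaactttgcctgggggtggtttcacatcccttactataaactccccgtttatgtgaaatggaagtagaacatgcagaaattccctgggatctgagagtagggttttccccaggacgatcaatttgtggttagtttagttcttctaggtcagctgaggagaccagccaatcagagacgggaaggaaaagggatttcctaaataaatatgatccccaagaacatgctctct

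The window of Cxcl10 (chr5:92348890-92349139, minus strand) held 1 response element core, 213 to 204 bases before the start, and matches to the κB consensus in 2 separate places, 159 to 150 and 104 to 94 bases before the start, the latter with overlapping matches. The window of Cxcl9 (chr5:92328080-92328329, minus strand) held none of the 3. Of all 32851 promoter windows, 2.98% held the response element core, 7.02% the gamma-activated site core and 7.25% the κB consensus, and 0.164% held the response element core together with the κB consensus. Of the other 4 members in the table, Cxcl14 held 1 response element core and 1 gamma-activated site core, and Cxcl12, Cx3cl1 and Ackr3 held no match. A match describes the letters of the window and is not evidence of binding.

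Genes induced by interferon-γ were highest in the same Cx43KO libraries as Cxcl9 and Cxcl10. A list of 25 such genes was compared, of which 24 had a row and 17 were tested. None was called, 8 of the 17 were higher at an unadjusted p below 0.05 (5.66% of all tested genes), and the median log2 fold change was 2.15, against 0.07 for all tested genes. Without Cx43KO replicate 1, 23 were tested, the median was 3.07, and 5 were called higher (Igtp, Irgm2, B2m, H2-Aa and H2-Ab1), against 0.0788% of all genes tested without that library. H2-Aa (0, 1 and 5 counts in Cx43FL) and H2-Ab1 (8, 0 and 1) were not tested with all libraries. Both passed the filter here through their Cx43KO counts alone, so a difference was built into their passing. The median of 3.07 is also over a larger set than that of 2.15. The summed level of the 24 genes with a row was 238 to 346 CPM in Cx43FL and 244, 1265 and 1539 CPM in Cx43KO replicates 1 to 3. Cx43KO replicate 1 was the lowest Cx43KO library for 17 of the 17, against 40.4% of all tested genes, and 11 of the 17 had replicates 2 and 3 above every Cx43FL library with replicate 1 not above, against 5.8% of all tested genes. Replicate 1 was also the lowest Cx43KO library for 10 of the 10 astrocyte markers, so this order was not particular to interferon-γ-induced genes.

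The highest members of the list showed this directly. B2m, the light chain of MHC class I, had 172, 174 and 133 CPM in Cx43FL and 121, 456 and 784 CPM in Cx43KO. Irgm2, an interferon-inducible GTPase, had 11.2, 12.5 and 6.84 CPM in Cx43FL and 9.50, 114 and 58.1 CPM in Cx43KO, and Irgm1 had 30.6, 44.6 and 16.1 CPM in Cx43FL and 16.8, 109 and 92.2 CPM in Cx43KO. Cd74, the MHC class II invariant chain, had 8.56, 32.6 and 5.14 CPM in Cx43FL and 30.4, 54.8 and 162 CPM in Cx43KO.

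For 4 of the 17 the genotypes did not overlap and Cx43KO was higher (8.08% of all tested genes), and 3 of these also had an unadjusted p below 0.05. The GTPase gene Igtp had 5.33, 3.05 and 2.87 CPM in Cx43FL and 21.6, 50.9 and 42.9 CPM in Cx43KO. Gbp4, a guanylate-binding protein gene, had 0.0659, 0.398 and 0.130 CPM in Cx43FL and 2.42, 5.43 and 5.56 CPM in Cx43KO, and it passed the filter through its Cx43KO counts alone. Psmb9, an immunoproteasome subunit gene, had 7.64, 1.33 and 4.30 CPM in Cx43FL and 9.19, 119 and 19.1 CPM in Cx43KO. In these 3 genes replicate 1 was above Cx43FL but still the lowest of the Cx43KO libraries, unlike in Ccl5 and Ccl2, where replicate 2 was lowest.

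**Figure D2:**
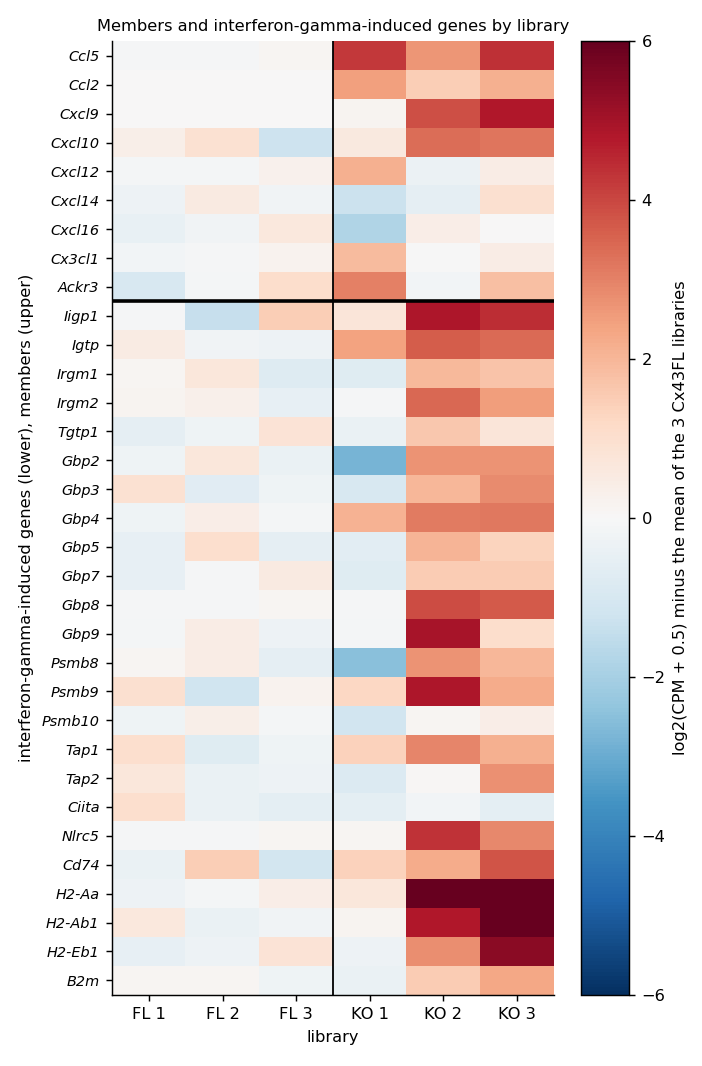
Each row is a gene (the 9 members above the thick line, 24 interferon-γ-induced genes below it) and each column a library; colour is log2(CPM + 0.5) minus the mean of the 3 Cx43FL libraries, with values above 6 drawn as 6. Cxcl9 and Cxcl10 share with most genes of the lower block the strong colour in Cx43KO replicates 2 and 3 and its absence in replicate 1, while Ccl5 and Ccl2 are coloured in all 3.

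Myeloid markers differed between the same libraries: C1qa had 1, 88 and 83 reads, Trem2 0, 76 and 81 reads and Tyrobp 10, 415 and 199 reads in Cx43KO replicates 1 to 3, markers named here after their values were seen. The part of myeloid mRNA in the Cxcl9 and Cxcl10 values was not tested.

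Genes of the interferon-γ receptor route were read beside this list. The cytokine gene Ifng had 2 counts in Cx43FL replicate 3 and 0 in the other 5 libraries. The receptor subunit gene Ifngr2 had 21.5, 56.6 and 25.5 CPM in Cx43FL and 51.2, 35.9 and 31.6 CPM in Cx43KO. The kinase gene Jak1 had 142 to 168 CPM in the controls and 170 to 199 CPM in Cx43KO, and Jak2 had 92.2 to 108 CPM in the controls and 63.6 to 77.5 CPM in Cx43KO, with log2 differences of 0.22 (SE 0.26) and -0.52 (SE 0.29) that did not pass the test. In all, 7 of the 9 genes of the route were tested, with a median log2 fold change of 0.22, and 0.25 without Cx43KO replicate 1. Of the 7, 2 had Cx43KO replicates 2 and 3 above every Cx43FL library and replicate 1 not, against 5.8% of all tested genes. Irf1, named here after its values were seen, was among these. It had 3.62, 1.86 and 10.4 CPM in Cx43FL and 0.435, 21.7 and 26.1 CPM in Cx43KO. Its log2 difference was 1.60 (SE 1.12), and 2.17 (SE 0.70) without Cx43KO replicate 1.

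Genes induced by NF-κB were compared as well, since NF-κB also acts on several chemokine genes. Of 12 listed, 9 were tested, none was called, and the median log2 fold change was 0.22. The genotypes did not overlap for 2 of the 9, 1 higher in Cx43KO (8.08% of all tested genes) and 1 lower (7.45%). Nfkbia, the inhibitor that NF-κB itself induces, was lower in every Cx43KO library (6.89, 13.4 and 18.1 CPM) than in every Cx43FL library (32.7, 34.0 and 27.5 CPM), with a log2 fold change of -1.29 (SE 0.50) and an edgeR unadjusted p of 0.0255. Birc3, an inhibitor of apoptosis gene named here after its values were seen, was the higher gene, with 0.593, 1.73 and 2.87 CPM in Cx43FL and 4.35, 4.74 and 12.9 CPM in Cx43KO (log2 difference 2.08, SE 0.99, edgeR unadjusted p = 0.0598). Vcam1, Tnfaip2 and Tnfaip3, an adhesion molecule and TNF-induced genes, overlapped between genotypes, with log2 differences of 0.18, -0.50 and 0.93.

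The genes most like Cxcl10 over the 6 libraries were Phc1, a Polycomb group gene (r = 0.9859), Mia (r = 0.9835) and Sars2, a mitochondrial seryl-tRNA synthetase gene (r = 0.9811). Phc1 varied much less, between 58.9 and 73.5 CPM in Cx43FL and between 71.3 and 93.4 CPM in Cx43KO. The correlation therefore describes a proportional pattern of log2 levels over the libraries and not the size of the difference. Cxcl9 did not pass the filter and was not entered in this comparison.

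Cxcl12, Cx3cl1 and Ackr3 were highest in Cx43KO replicate 1, the library with the highest neuron marker sum. CXCL12 holds and guides cells that carry CXCR4, and ACKR3 binds and removes it. Cx3cl1 encodes fractalkine, a ligand made by neurons that signals to CX3CR1 on microglia. Cxcl12 had 4.41, 4.38 and 5.80 CPM in Cx43FL and 22.9, 3.70 and 6.79 CPM in Cx43KO. Replicate 2 was below all Cx43FL libraries and replicate 3 was close to them. The log2 fold change was 1.19 (SE 0.82, edgeR adjusted p = 0.672) with all libraries and 0.11 without Cx43KO replicate 1.

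Cx3cl1 (chr8:94772009-94782427, plus strand, 3 exons) had 19.9, 21.6 and 26.0 CPM in Cx43FL and 84.9, 22.1 and 30.6 CPM in Cx43KO. Replicate 2 lay within the Cx43FL range, and replicate 3 lay just above it. The log2 fold change was 1.03 (SE 0.52, edgeR adjusted p = 0.609) and 0.22 without Cx43KO replicate 1.

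Ackr3 (chr1:90203980-90216751, plus strand, 2 exons) had 0.527, 1.33 and 3.65 CPM in Cx43FL and 15.4, 1.29 and 6.39 CPM in Cx43KO. The Cx43FL libraries themselves spanned a wide range, and replicate 2 of Cx43KO lay inside it. The log2 fold change was 2.06 (SE 1.13, edgeR adjusted p = 0.617) and 1.06 without Cx43KO replicate 1.

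Among all tested genes, 38.9% were highest of the Cx43KO libraries in replicate 1, and 15.7% were above every Cx43FL library in replicate 1 and not in replicates 2 and 3. Markers of other cells were also highest there: neuron markers as given above, and oligodendrocyte lineage markers with 2565 CPM, against 657 to 980 CPM in the other Cx43KO libraries and 626 to 999 CPM in Cx43FL. Endothelial markers summed to 9.75 to 13.4 CPM in Cx43FL and 24.0, 16.0 and 25.0 CPM in Cx43KO, and mural and meningeal markers to 53.1 to 84.6 CPM and to 162, 48.8 and 167 CPM. The part of these cells in the Cxcl12, Cx3cl1 and Ackr3 values was not tested.

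The closest genes in pattern were Gmppa (r = 0.9983), Rnf150 and Tpst1 for Cxcl12, Kdelr2 (r = 0.9991), Cd47 and Gm3086 for Cx3cl1, and Clcn3 (r = 0.9934), Smim18 and Nelfa for Ackr3. Kdelr2, a receptor gene of endoplasmic reticulum retrieval, had 36.8, 39.1 and 49.2 CPM in Cx43FL and 166, 42.1 and 60.2 CPM in Cx43KO. Cd47, the "do not eat me" surface protein gene, had 157, 165 and 183 CPM in Cx43FL and 365, 173 and 204 CPM in Cx43KO. In both, as in Cx3cl1, replicate 1 was the high library.

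**Figure D3:**
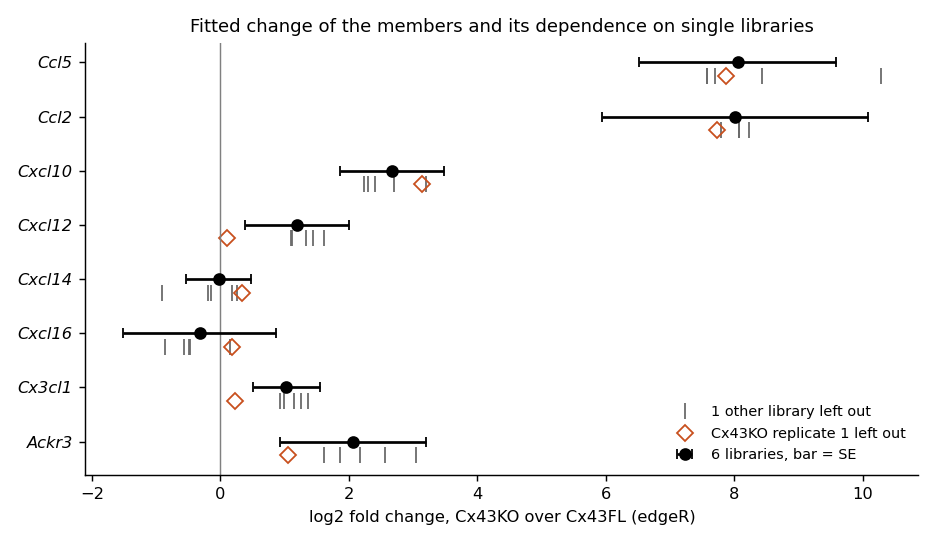
Fitted log2 fold change of Cx43KO over Cx43FL (horizontal axis) for the 8 tested members (vertical axis). Black points are the fit to 6 libraries with SE bars, orange diamonds the fit without Cx43KO replicate 1 and grey ticks the fits without each other library. The diamonds of Cxcl12 (0.11) and Cx3cl1 (0.22) lie near 0, while those of Ccl5, Ccl2 and Cxcl10 stay at 7.87, 7.74 and 3.15.

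The value of Cxcl12 depended on which end of the gene was counted. The chosen transcript, Cxcl12-202 (chr6:117168535-117175069, 3 exons, the form usually called alpha), ends at the proximal site, while Cxcl12-201 skips to a distal last exon and shares 6.1% of its bases with Cxcl12-202. Cxcl12-201 had 2.63, 1.33 and 3.39 CPM in Cx43FL and 8.32, 5.38 and 9.39 CPM in Cx43KO replicates 1 to 3. At the distal end the Cx43KO values therefore all exceeded those of Cx43FL, which was not so at the proximal end. Among all tested genes 8.08% showed such a separation, and the share over all transcripts was not computed. The fitted log2 fold change of Cxcl12-201 was 1.67 (SE 0.78, edgeR adjusted p = 0.716 over all transcripts tested).

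The counts of Cxcl12-201 were 59.7%, 30.3% and 58.4% of those of Cxcl12-202 in Cx43FL. In Cx43KO they were 36.3%, 146% and 138%, so the distal transcript had more counts than the proximal transcript in replicates 2 and 3 only. These counts are not scaled to length, and Cxcl12-201 has 5627 bases against 1878 for Cxcl12-202. The percentages therefore compare libraries and do not rank the 2 ends by level. Reads in the first exons are counted on both transcripts, and the intron-retaining transcript Cxcl12-204 had the same counts as Cxcl12-202 in every library. The 2 distal transcripts, Cxcl12-201 and Cxcl12-203, also had nearly the same counts, so the comparison is between ends of the gene and not between single isoforms.

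**Figure D4:**
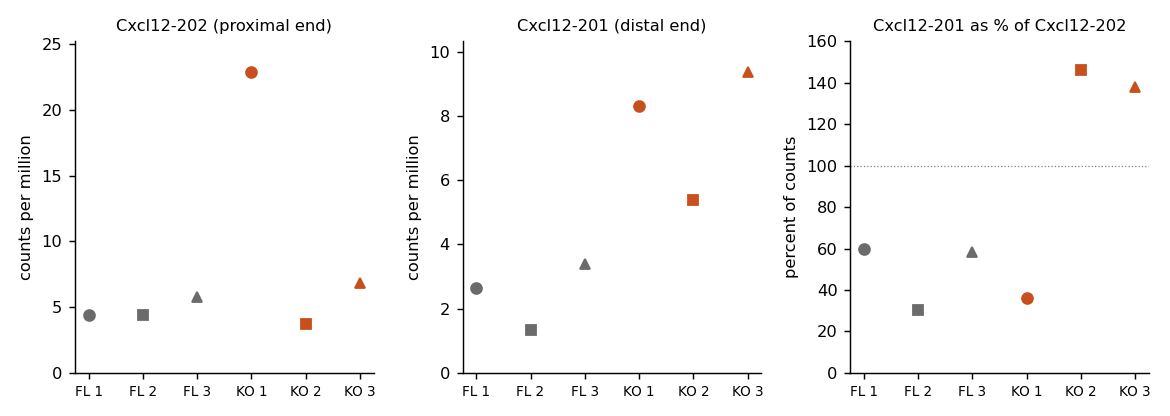
CPM of the proximal transcript Cxcl12-202 (left) and the distal transcript Cxcl12-201 (middle), and the counts of the distal transcript as a percentage of those of the proximal transcript (right, dotted line at equality), in each library; grey is Cx43FL, orange is Cx43KO, all axes linear and from 0. The proximal transcript is high in Cx43KO replicate 1, and the percentage passes equality of counts in Cx43KO replicates 2 and 3 (146% and 138%) and in no other library. Counts are not scaled to transcript length, so the dotted line does not mark equal levels.

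Cxcl14 and Cxcl16 showed no shift between genotypes that exceeded the spread. Cxcl14, a ligand found in many epithelia and in brain, was the most abundant member, with 113, 199 and 119 CPM in Cx43FL and 56.8, 96.9 and 269 CPM in Cx43KO replicates 1 to 3. Its Cx43KO libraries fell on both sides of the Cx43FL range, and the log2 fold change was -0.03 (SE 0.51, edgeR adjusted p = 0.993). The order of the Cx43KO libraries was that of their astrocyte marker sums. This did not hold in Cx43FL, where replicate 2 had the highest Cxcl14 and the lowest astrocyte marker sum. Most like Cxcl14 were Mmp15 (r = 0.9903), a membrane metalloproteinase gene, Aldh4a1 (r = 0.9900), a mitochondrial enzyme gene of proline breakdown, and Rnf145 (r = 0.9900). Aldh4a1 had 32.5, 59.1 and 33.3 CPM in Cx43FL and 10.4, 24.7 and 78.7 CPM in Cx43KO.

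Cxcl16, a membrane-anchored ligand of CXCR6, had 1.45, 1.79 and 3.52 CPM in Cx43FL and 0.248, 2.93 and 2.19 CPM in Cx43KO. Replicate 1 of Cx43KO, with 4 counts, lay below all other libraries, and replicates 2 and 3 lay within the Cx43FL range. The log2 fold change was -0.32 (SE 1.19, edgeR adjusted p = 0.950), and it was 0.18 without Cx43KO replicate 1. The first exon of Cxcl16 overlaps exons of Zmynd15 on the opposite strand, which had 0 to 10 counts on any transcript. The genes most like Cxcl16 were Poc5 (r = 0.9949), Fbf1 and Prkcd.

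Levels of different genes were compared per kb of the chosen transcript. In Cx43FL, Cxcl14 was first with 78.7 ± 26.3 CPM per kb (SD, n = 3), followed by Cx3cl1 with 6.79 ± 0.947, Cxcl10 with 5.59 ± 3.70 and Cxcl12 with 2.59 ± 0.431. Cxcl16 (0.835 ± 0.411) and Ackr3 (0.598 ± 0.529) came next, Ccl5 had 0.0408 ± 0.0707, and Ccl2 and Cxcl9 were at 0 counts. The libraries of neighbours in this order did not overlap between Cxcl14 and Cx3cl1, between Cxcl12 and Cxcl16, and between Ackr3 and Ccl5, while the other neighbours overlapped.

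In Cx43KO the order was Cxcl14 (77.1 ± 61.7 CPM per kb), Cxcl10 (35.6 ± 24.7), Ccl5 (14.1 ± 7.79), Cx3cl1 (13.8 ± 10.3), Cxcl12 (5.93 ± 5.49), Ackr3 (2.51 ± 2.33), Cxcl9 (2.37 ± 2.34), Ccl2 (2.0 ± 0.872) and Cxcl16 (0.664 ± 0.514). Ccl5 thus ranked 7 in Cx43FL and 3 in Cx43KO. All neighbours in the Cx43KO order overlapped except Ccl2 and Cxcl16, whose nearest values were 1.088 and 1.087 CPM per kb. Per kb of its longest transcript, Cxcl12 had 1.98 CPM in Cx43KO, below Ackr3 and Cxcl9, so its place in this order depends on the transcript taken. Cxcl14 was first in Cx43KO by its mean, but in replicate 2 its level (53.0 CPM per kb) was close to that of Cxcl10 (52.0 CPM per kb).

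**Figure D5:**
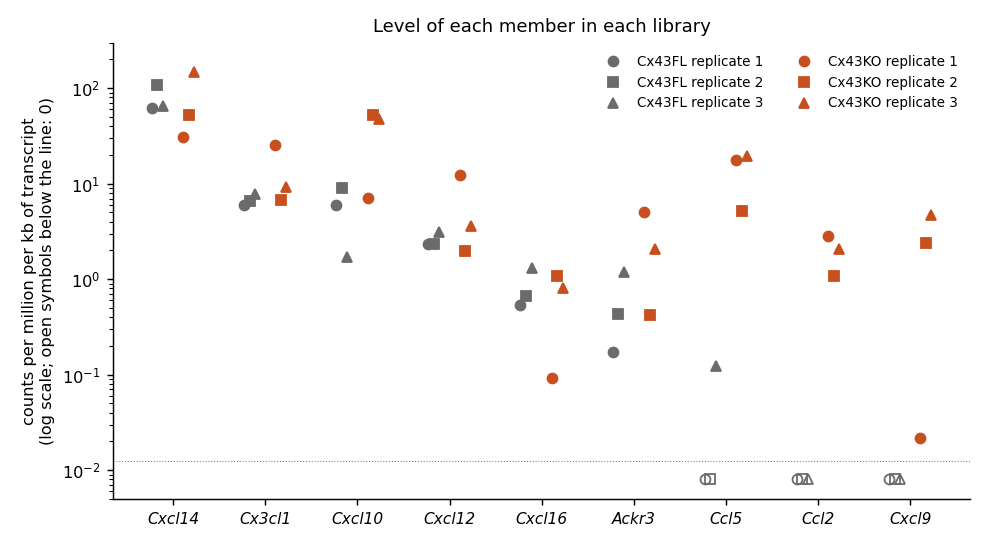
Level of each member in CPM per kb of its chosen transcript (vertical axis, log scale) in each library; grey is Cx43FL, orange is Cx43KO, and circle, square and triangle are replicates 1, 2 and 3. Open symbols below the dotted line are libraries with 0 counts. Members are ordered by their Cx43FL mean, from Cxcl14 (78.7) to Ccl2 and Cxcl9 (0 counts); the Cx43KO points of Ccl5 and Ccl2 lie above all of their Cx43FL points.

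The rest of the ligand family was measured at low counts or none in most cases. Of 30 other chemokine ligands listed, 29 had a row, 12 were at 0 counts and 15 at 3 counts or fewer in every library, and 6 passed the filter, none of them called. The median log2 fold change of these 6 was 0.98. Without Cx43KO replicate 1 it was 2.05, but over 9 genes, with Ccl7, Ccl8 and Ccl12 (2.05, 9.37 and 5.70) added. Ccl8 and Ccl12 entered through their Cx43KO counts alone, so the 2 medians cannot be compared. Of the 6 themselves, Ccl6 and Ccl9 were then at 2.32 and 4.27. Ccl25, Ccl27a, Ccl28 and Cxcl5 were at -0.014, -0.575, -0.264 and -0.259. Ccl9, a CC ligand of mouse myeloid cells, was the single tested ligand whose Cx43KO values all exceeded those of Cx43FL, 1 of 6 against 8.08% of all tested genes. The Cx43FL libraries held 0, 2 and 2 counts of it and the Cx43KO libraries 394, 18 and 94, with replicate 1 highest (edgeR log2 difference 6.64, SE 1.66, unadjusted p = 0.00215; 4.27, SE 1.79, without that library). Like Ccl5 and Ccl2, Ccl9 passed the filter through its Cx43KO counts alone, so a difference was built into its passing. The 3 other ligands with the highest mean, Ccl27a, Ccl28 and Ccl25, overlapped between genotypes, with log2 differences of -0.64, 2.39 and -0.43; that of Ccl28 was -0.26 without Cx43KO replicate 1.

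Several ligands that failed the filter had counts in Cx43KO only or mostly, and they are named here after their values were seen. Ccl8 had 0 counts in every Cx43FL library and 0, 101 and 128 in Cx43KO replicates 1 to 3, and Ccl12, the neighbour family member of Ccl2, had 0, 3 and 0 counts in Cx43FL and 0, 148 and 51 in Cx43KO. Both followed the replicate pattern of Cxcl9 rather than that of Ccl2. Ccl7 had 31 counts in 1 Cx43FL library and 131 in Cx43KO replicate 2, with at most 11 elsewhere. The neutrophil ligands Cxcl2 and Cxcl3 were at 0 in all libraries, and Cxcl1 had at most 2 counts.

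Few receptors for the members were detected in these astrocyte polysomes. Of 22 receptor genes, 5 passed the filter and 7 were at 0 counts in all libraries, including Cxcr3, the receptor of Cxcl9 and Cxcl10. Ccr2, the receptor of Ccl2, had 0 counts in Cx43FL and 0, 2 and 88 in Cx43KO, so its counts were concentrated in Cx43KO replicate 3. Cxcr4, the signalling receptor of Cxcl12, was counted 0, 0 and 18 times in Cx43FL and 29, 13 and 44 times in Cx43KO. Cxcr6, the receptor of Cxcl16, had 1 count in Cx43FL replicate 3 and 0 elsewhere.

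Cx3cr1, the fractalkine receptor and a microglial marker, had 2.90, 3.85 and 6.32 CPM in Cx43FL and 3.10, 4.46 and 6.73 CPM in Cx43KO, with overlapping ranges and a log2 difference of 0.13 (SE 0.86). Ackr1 and Ackr4, the other atypical receptors in the tested set, and Ccr10 also overlapped between genotypes, with log2 differences of -0.04, -0.03 and -2.33; that of Ackr1 was -1.93 without Cx43KO replicate 1. The median log2 fold change over the 5 tested receptors was -0.03. Of the proteases that cut or shed chemokines, 4 of 6 were tested and none was called. Adam10 and Adam17, which shed fractalkine and CXCL16 from the membrane, had log2 differences of 0.57 (SE 0.41) and 0.58 (SE 0.55), Mmp2 of 2.24 (SE 1.38) and Mmp14 of -0.51 (SE 0.64), all with overlapping libraries. The median of the 4 was 0.57, and 0.23 without Cx43KO replicate 1.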

How the data were processed

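The authors deposited raw counts of reads per Ensembl transcript, 1 column per library. Polysomal RNA (2 ng per library) had been amplified without strand information, sequenced as 50-base reads, aligned to mm10 with STAR and counted with HTSeq-count 0.5.3 on Ensembl annotation, after removal of reads mapping more than once. A read was counted on every overlapping transcript. Of 75466 transcripts, 73157 were matched to symbols by GENCODE vM21, and the 2309 others (1.61 to 1.78% of counts) were left out. Each gene was taken by its transcript with the highest total, giving 22086 genes. CPM (counts per 1000000) use the TMM-scaled library size. Genotypes were compared with edgeR 4.0.16 (filterByExpr, quasi-likelihood test, genotype alone), tested on simulated data, with DESeq2 1.42.0 as an alternative. Named genes were the 9 members, the 3 genes most like each tested member, the targeted gene and, from each pathway list, the 4 with the highest mean CPM and those whose genotypes did not overlap at an unadjusted p below 0.05; others are named as chosen later or as receptors of a member. The members and lists were chosen with earlier results of these data known. Of the genes that these rules name, 1 is not reported here.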

Additional observations from a re-analysis of the deposited data

How the results depend on the processing

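The number of calls depended on the tool. Genes called higher in Cx43KO numbered 1 in the edgeR fit, 0 when 10 counts or more were needed in each library, 0 on summed transcripts, 113 and 147 in DESeq2 with and without its prior, and 763 at an unadjusted p; genes called lower numbered 0, and 17, 27 and 358 in the last 3. Of the members, 0 were called by edgeR, 2 by DESeq2 with its prior (Ccl5 and Cxcl10, adjusted p = 0.000102 and 0.0492), 3 without it (Cxcl9 added, adjusted p = 0.000921) and 2 at an unadjusted p with the minimum of 50 kept, which Ccl2 does not reach. Of the pathway genes, 0 were called higher, and 6, 10 and 9 under these 3 settings; 1 was lower at an unadjusted p. Leaving out single libraries gave 0 to 11 genes called higher, with 11 without Cx43KO replicate 1, and 0 to 5 pathway genes, with 5 without that library. With single libraries left out, the log2 difference of Cxcl14 spanned -0.90 to 0.34 (above 0 without Cx43FL replicate 2 or Cx43KO replicates 1 or 2) and that of Cxcl16 spanned -0.87 to 0.18 (above 0 without Cx43FL replicate 3 or Cx43KO replicate 1). Per kb of its longest transcript, Cxcl12 had 0.864 CPM in Cx43FL and 1.98 in Cx43KO. The receptor median became 0.42 without a filter, 0.026 with the 10-count filter, 0.034 on summed transcripts and -0.069 to 0.43 with single libraries left out (below 0 only without Cx43KO replicate 1). The median of other ligands became -0.54 with the 10-count filter, and that of NF-κB-induced genes ran from -0.074 without Cx43KO replicate 1 to 0.54 without Cx43FL replicate 1. The cause of these differences was not tested.

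The replicate numbers did not pair the libraries (correlations of same-numbered deviations of 0.0114, -0.00402 and -0.0547). With a replicate block, 2 genes were called higher, no member was called and the receptor median was 0.13.

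At these depths 0 counts allow up to 0.0864 to 0.203 CPM per library, and the ratios and bounds given cover counting error only.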
